A study of Mus musculus with 16 samples.

Results

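The genes described here are 36 genes of the endoplasmic reticulum (ER): chaperones, protein disulfide isomerases, factors of ER-associated degradation, the sensors of ER stress and the machinery that brings new proteins into the ER. They were chosen by gene symbol from a list of ER genes, drawn up with earlier results of these data known. Counts of these genes beside the share of all genes are therefore descriptions, not independent support. All 36 had a probe set named for the gene alone, and all 36 passed the filter on low values on all 16 arrays, so they stand among 10610 genes tested. They comprise 10 chaperones and co-chaperones, 2 lectin chaperones, 4 disulfide isomerases, 10 degradation factors, 4 stress sensors and response factors, and 6 members of the translocation and signal peptidase machinery.

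R7T1, a beta-cell line of the mouse pancreas, received BayK8644 together with exendin-4 (the combination), BayK8644, exendin-4, or the DMSO vehicle, and were sampled at 0.5, 2, 6 and 24 h. BayK8644 opens L-type calcium channels, and exendin-4 activates the GLP-1 receptor. The labels write the compound as BayK8644(2a) without explaining the suffix, and every result for BayK8644 assumes that it is that compound. The sources used here give neither doses nor a further genotype of the line. One array was hybridised for each treatment and time, which gives 4 arrays per treatment and 16 in all, with no replicate of any treatment and time. Nothing in the labels says that separate cultures were used, and p-values therefore reflect the spread among these 16 arrays alone, which may be technical. A bulk array cannot tell fewer expressing cells from less RNA per cell.

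Secreted proteins such as insulin enter the ER through the Sec61 channel, lose their signal peptide, fold with the help of chaperones led by BiP, and form disulfide bonds through protein disulfide isomerases. Chains that fail to fold are drawn back to the cytosol and degraded. When unfolded chains accumulate, the sensors IRE1, PERK and ATF6 start the unfolded protein response, in which spliced XBP1 and cleaved ATF6 induce chaperone and degradation genes, and beta cells carry a heavy load of this kind because they make insulin.

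Levels are log2 of the deposited intensity, and a difference of 1 on this scale is a doubling. Median intensity lay between 10.5 and 11.6 per array, and the median log2 level over genes tested between 9.862 and 9.932. GCRMA quantile-normalizes, so these like medians follow from the processing and cannot show that the arrays were alike before it. Of the beta-cell markers, Ins2 lay between 15.60 and 15.79 and Pdx1 between 13.22 and 13.43 on all arrays. Slc2a2, the dimmest of these markers, lay between 6.715 and 8.001. Of 12 markers of other pancreatic, mesenchymal, endothelial and blood cells, 8 were under log2 4 on every array. The exceptions included Gcg, which encodes glucagon, between 9.08 and 10.06, and Sst, which encodes somatostatin, between 5.09 and 7.61. The others were the acinar marker Cela1, between 8.95 and 9.60, and the mesenchymal marker Col1a2, between 3.30 and 4.08. The DMSO array at 2 h gave the lowest of the 16 values for 18 of the 36 ER genes, against 6.7% of all genes, and the combination array at 24 h gave the highest for 18 of the 36, against 19.4% of all genes.

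Promoters of 28 of the 36 genes were found in the RefSeq table (build GRCm38.p6), 29 promoters in all, each running from 250 bases before to 50 bases after the start site. On either strand, 9 of the 29 (31.0%) held the ER stress response element (ERSE), CCAAT, any 9 bases, CCACG, against 0.119% of 32851 promoters of the same length. The second form of the element (ERSE-II), ATTGG, any 1 base, CCACG, lay in 2 of the 29 (6.9%), against 0.0365% of all promoters. The element bound by XBP1 and ATF6 in the form TGACGTGG or TGACGTGA lay in 1 (3.45%), against 1.12%, and the cAMP response element TGACGTCA in 0, against 1.79%. CCACG is part of both ERSE forms and of the opposite strand of TGACGTGG. These shares describe genes that were chosen for their ER roles, and no test was made. The ERSE genes were Hspa5, Hsp90b1, Calr, Canx, Pdia6, Dnajc3, Creld2, Syvn1 and Derl3, and the ERSE-II genes were Dnajb11 and Herpud1. The 170 bases before the start site are printed for 6 of them, so that the element can be seen both in genes that BayK8644 raised in at least 1 test below (Hspa5, Creld2, Pdia6) and in genes whose brightest probe set passed none of its tests (Dnajc3, Syvn1, Herpud1), although a dimmer probe set of Dnajc3 and of Herpud1 did. All run 5′ to 3′ on the gene's strand, and capitals mark the fixed letters of the elements, on either strand.
Hspa5, chr2:34771920-34772089, plus strand: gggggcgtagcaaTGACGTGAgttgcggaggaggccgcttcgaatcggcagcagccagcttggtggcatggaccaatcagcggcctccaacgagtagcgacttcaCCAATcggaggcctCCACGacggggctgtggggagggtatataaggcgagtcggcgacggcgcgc
Creld2, chr15:88819476-88819645, plus strand: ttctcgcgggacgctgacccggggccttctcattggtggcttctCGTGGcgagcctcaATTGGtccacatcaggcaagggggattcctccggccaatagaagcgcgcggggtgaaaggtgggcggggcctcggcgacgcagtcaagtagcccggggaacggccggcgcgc
Pdia6, chr12:17266419-17266588, plus strand: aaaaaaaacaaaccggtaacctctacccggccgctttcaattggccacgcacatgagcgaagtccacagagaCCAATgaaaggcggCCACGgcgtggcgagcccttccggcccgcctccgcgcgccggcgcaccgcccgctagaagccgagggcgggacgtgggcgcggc
Dnajc3, chr14:118937762-118937931, plus strand: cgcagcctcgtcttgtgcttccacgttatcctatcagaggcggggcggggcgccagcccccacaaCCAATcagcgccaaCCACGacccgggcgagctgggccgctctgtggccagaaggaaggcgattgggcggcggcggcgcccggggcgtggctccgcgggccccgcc
Syvn1, chr19:6046406-6046575, plus strand: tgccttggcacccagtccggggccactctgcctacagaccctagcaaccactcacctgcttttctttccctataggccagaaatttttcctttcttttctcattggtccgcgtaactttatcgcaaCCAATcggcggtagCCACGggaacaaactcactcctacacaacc
Herpud1, chr8:94386259-94386428, plus strand: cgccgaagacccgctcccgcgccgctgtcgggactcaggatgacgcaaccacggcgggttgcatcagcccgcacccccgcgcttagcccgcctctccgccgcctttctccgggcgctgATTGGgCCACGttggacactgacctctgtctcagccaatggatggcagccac
In Hspa5 the ERSE runs from position -65 to -47 and TGACGTGA from -157 to -150, counted from the start site. Creld2 carries its ERSE on the opposite strand, so it reads CGTGG, 9 bases, ATTGG.

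With BayK8644 present, 8 of the 36 ER genes were higher over all times and none was lower. Of all genes 4.89% passed upward and 3.97% downward in the same test, which set the 8 arrays with BayK8644 against the 8 without it with time and exendin-4 in the model. These counts rest on 1 probe set a gene, the brightest. Adjusted over all probe sets, a dimmer probe set of Derl2, a membrane protein of the degradation channel, was lower with BayK8644 at -0.27 ± 0.04 over all times (SE; limma, adjusted p = 0.00332), -0.42 at 2 h and -0.31 in the combination against DMSO, where its brightest gave -0.04 over all times. Dimmer probe sets of Herpud1 and Pdia6 were higher over all times, at 0.18 ± 0.04 and 0.48 ± 0.11 (SE; limma, adjusted p = 0.0314 and 0.0245), as they were in the combination against DMSO, with 1 of Calr. That of Pdia6 had a mean log2 level of 4.90, near the filter of 4, where its brightest had 12.80. A dimmer probe set of Dnajc3 was higher at 6 h, at 0.41 ± 0.06 (SE; limma, adjusted p = 0.0405). Of the 8, 6 were chaperones and co-chaperones (Hspa5, Dnajb9, Dnajb11, Hyou1, Creld2, Manf), 1 was the response factor Xbp1 and 1 the signal peptidase subunit Spcs3. The median difference over the 36 was 0.11, against 0.01 over all genes, and 31 of the 36 differences were above 0. The array with BayK8644 was the higher in all 8 matched pairs for 4 of the 36 (Dnajb9, Edem1, Xbp1, Spcs3), against 2.96% of all genes. The count of 8 was 3 without the exendin-4 array at 6 h, 4 without either the combination or the DMSO array at 6 h, and 13 without the DMSO array at 0.5 h. It was 5 without any one of the 4 arrays at 24 h, the BayK8644 array at 6 h, or the combination or DMSO array at 2 h. Without all arrays of 0.5, 2, 6 or 24 h it was 17, 1, 1 and 2. Dnajb9, Dnajb11 and Xbp1 kept their calls whichever single array was left out.

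Dnajb9, a J-domain co-chaperone of BiP, had the largest difference of the 36. At 0.5, 2, 6 and 24 h, Dnajb9 had log2 levels of 11.93, 12.12, 12.16 and 12.38 in the combination, 11.77, 11.91, 12.06 and 12.13 in BayK8644, 11.59, 11.71, 11.63 and 11.58 in exendin-4 and 11.49, 11.29, 11.48 and 11.80 in DMSO. At each time both arrays with BayK8644 lay above both without it. The difference over all times was 0.48 ± 0.06 (SE; 8 arrays against 8; limma, adjusted p = 0.000152), a 1.40-fold level, and it stayed past the threshold whichever array was left out, with differences of 0.44 to 0.51.

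Xbp1, the transcription factor whose spliced form drives chaperone genes, had the next largest difference among the 8. Xbp1 levels over the 4 times were 13.04, 13.01, 13.51 and 13.38 in the combination, 13.07, 12.88, 13.28 and 13.38 in BayK8644, 12.96, 12.71, 13.07 and 13.13 in exendin-4 and 12.98, 12.42, 13.01 and 13.16 in DMSO. The BayK8644 array was higher in all 8 matched pairs, at 0.26 ± 0.05 (SE; limma, adjusted p = 0.00416), a 1.20-fold level. Splicing of its RNA was not measured here. Of its 4 probe sets, the 3 brighter ones gave 0.26 to 0.31 over all times and the dimmest 0.01.

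Creld2 and Manf encode small ER proteins that are induced by ER stress. For Creld2 the combination arrays read 13.15, 13.19, 13.81 and 13.58 from 0.5 to 24 h, the BayK8644 arrays 13.19, 12.99, 13.54 and 13.44, the exendin-4 arrays 13.22, 13.06, 13.28 and 13.23 and the DMSO arrays 13.08, 12.87, 13.08 and 13.19. At 0.5, 2, 6 and 24 h, Manf had log2 levels of 14.30, 14.40, 14.82 and 14.74 in the combination, 14.30, 14.19, 14.57 and 14.63 in BayK8644, 14.38, 14.27, 14.42 and 14.27 in exendin-4 and 14.27, 14.11, 14.23 and 14.34 in DMSO. At 0.5 h the arrays of both genes overlapped between the groups, and at 6 and 24 h every array with BayK8644 lay above every array without it. Over all times Creld2 was higher by 0.24 ± 0.06 (SE; limma, adjusted p = 0.0198), 1.18-fold. Manf was higher by 0.21 ± 0.06 (SE; limma, adjusted p = 0.0334), 1.15-fold.

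Dnajb11 is a J-domain co-chaperone that hands clients to BiP, and Hyou1 a large chaperone that exchanges nucleotide on BiP. Dnajb11 levels over the 4 times were 11.62, 11.82, 12.15 and 12.05 in the combination, 11.71, 11.69, 11.93 and 11.94 in BayK8644, 11.65, 11.69, 11.74 and 11.67 in exendin-4 and 11.66, 11.56, 11.64 and 11.66 in DMSO. For Hyou1 the combination arrays read 10.85, 10.88, 11.13 and 11.38 from 0.5 to 24 h, the BayK8644 arrays 10.72, 10.70, 10.94 and 11.07, the exendin-4 arrays 10.73, 10.75, 10.78 and 11.05 and the DMSO arrays 10.80, 10.51, 10.59 and 10.72. The combination arrays of both genes were the highest at 2, 6 and 24 h. Dnajb11 differed by 0.20 ± 0.05 (SE; limma, adjusted p = 0.0184), 1.15-fold. Hyou1 differed by 0.22 ± 0.05 (SE; limma, adjusted p = 0.0204), 1.16-fold, on its brightest probe set, while its other probe sets gave 0.05 and 0.02.

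Hspa5, which encodes BiP, had the smallest difference of the 8. At 0.5, 2, 6 and 24 h, Hspa5 had log2 levels of 15.25, 15.37, 15.61 and 15.41 in the combination, 15.26, 15.17, 15.49 and 15.37 in BayK8644, 15.27, 15.15, 15.45 and 15.32 in exendin-4 and 15.27, 15.00, 15.33 and 15.26 in DMSO. The groups overlapped at 0.5 h and were apart at 2, 6 and 24 h, with the DMSO array lowest at each of these times. Its difference was 0.11 ± 0.03 (SE; limma, adjusted p = 0.0430), a 1.08-fold level. The call was lost when any of 14 arrays was left out, with an adjusted p of up to 0.0969. Whether signal saturation limits so bright a probe set was not tested.

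Spcs3, a subunit of the signal peptidase complex that cuts signal peptides, completed the 8. Spcs3 levels over the 4 times were 10.21, 10.37, 10.70 and 10.80 in the combination, 10.24, 10.16, 10.41 and 10.57 in BayK8644, 10.19, 10.18, 10.45 and 10.26 in exendin-4 and 10.23, 9.96, 10.17 and 10.32 in DMSO. Its matched differences were 0.19 to 0.24 at 2 and 6 h, where the groups still overlapped, and at 24 h both arrays with BayK8644 lay above both without it. Over all times the difference was 0.21 ± 0.06 (SE; limma, adjusted p = 0.0370), 1.16-fold.

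**Figure D1:**
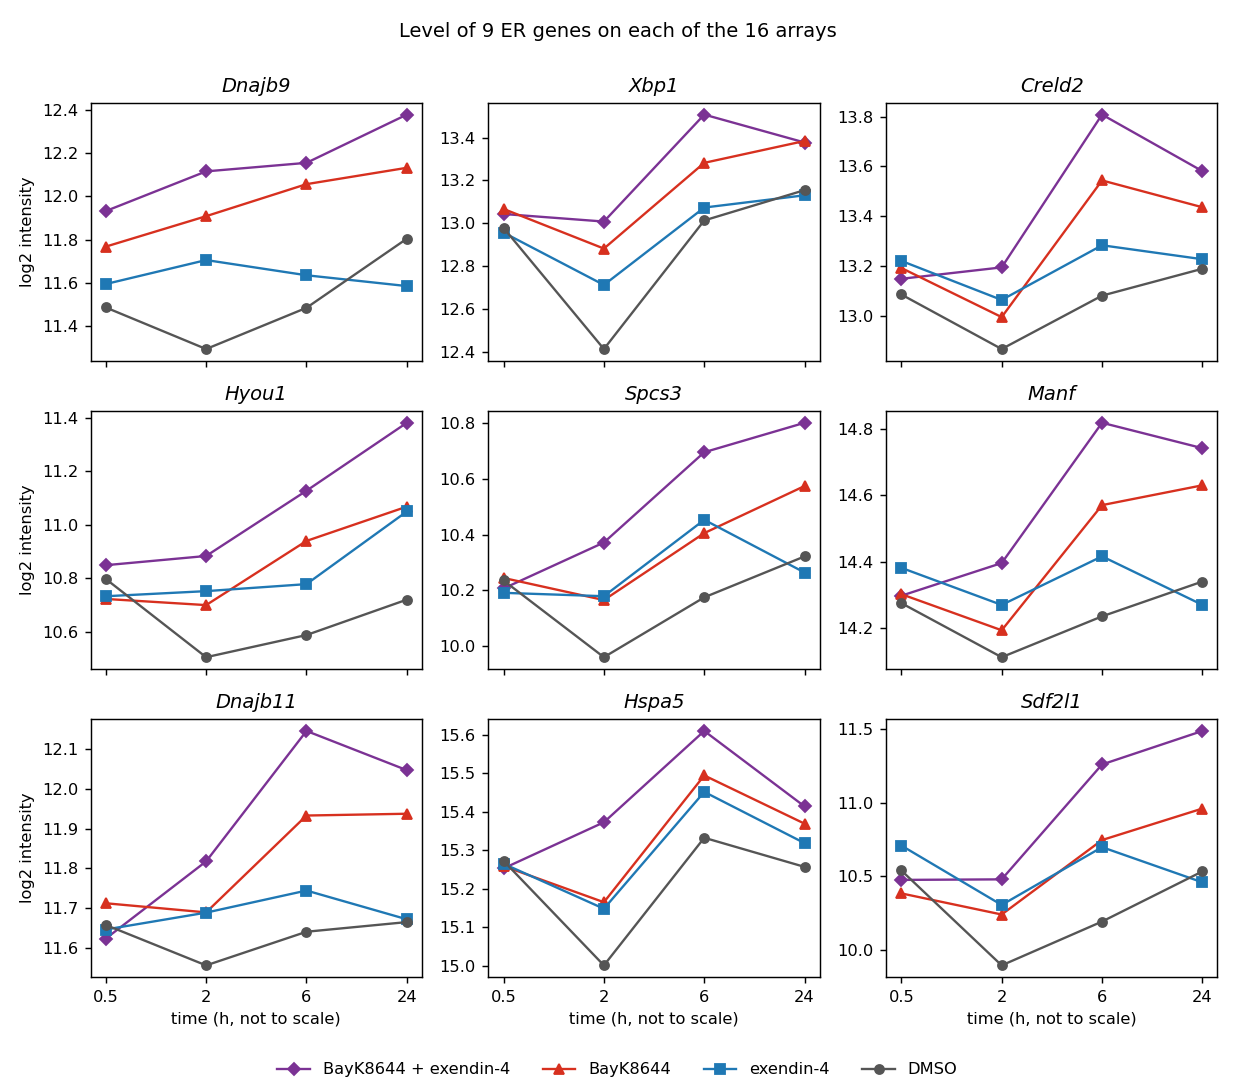
Log2 intensity (vertical axis, each panel on its own scale) of the 8 genes higher with BayK8644 over all times, and of Sdf2l1, at 0.5, 2, 6 and 24 h (horizontal axis, not to scale), with 1 point per array and lines joining the arrays of a treatment. The combination and BayK8644 lines lie above the exendin-4 and DMSO lines at 6 and 24 h, except for Spcs3 at 6 h, and those of Dnajb9 and Xbp1 also at 0.5 h, and the DMSO arrays dip at 2 h.

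The BayK8644 effect was then set out by time, with 2 arrays against 2 at each time and the spread shared over all arrays. This fit assumes that the effects of the agents add at each time. With no replicates, its spread is the departure from that sum, not variation between replicates. At 0.5 h 0 of the 36 passed (limma; 0.217% of all genes did, upward), 2 of the 36 and 2.05% of all genes had an unadjusted p under 0.05, and the median difference was 0.00. At 2 h 2 passed, Dnajb9 at 0.51 ± 0.10 (SE; limma, adjusted p = 0.0452) and Xbp1 at 0.38 ± 0.06 (SE; limma, adjusted p = 0.0198), against 1.15% of all genes. Both calls were lost without any one of the arrays at 0.5 or 2 h, and that of Dnajb9 also without any one at 6 h. Without the low DMSO array at 2 h the differences were 0.41 and 0.30. Adjusted over all probe sets, neither gene passed at 2 h on its brightest (limma, adjusted p = 0.114 for Dnajb9 and 0.0508 for Xbp1). Dimmer probe sets of Xbp1 did, at 0.46 and 0.50 (limma, adjusted p = 0.0207 and 0.0189).

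At 6 h 7 of the 36 passed upward, against 1.71% of all genes: Dnajb9 at 0.55, Creld2 at 0.49, Manf at 0.37, Hyou1, Xbp1 and Dnajb11 at 0.35 each, and Selenos at 0.31. The median difference was 0.19, against 0.01 over all genes, and 34 of the 36 were above 0. Creld2 had the smallest adjusted p (0.00385; limma), at 1.41-fold. Both arrays with BayK8644 lay above both without it for 26 of the 36, against 24.4% of all genes. The count fell to 0 without any one of the 4 arrays at 6 h and to 2 without any one at 0.5 h. Adjusted over all probe sets, the brightest of Dnajb9, Hyou1, Xbp1 and Selenos no longer passed at 6 h (limma, adjusted p = 0.0773, 0.0724, 0.0553 and 0.0924).

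At 24 h 9 of the 36 passed upward, against 2.99% of all genes: 6 chaperones and co-chaperones (Dnajb9, Dnajb11, Hyou1, Sdf2l1, Creld2, Manf), the disulfide isomerase Pdia6, the channel subunit Sec61a1, and Spcs3. The median difference was 0.19, against 0.01 over all genes, and for 22 of the 36, against 23.5% of all genes, the groups did not overlap. The count was 0 without the combination or the exendin-4 array at 24 h, and 4 without any one array at 0.5 h. Adjusted over all probe sets, the brightest of Pdia6, Hyou1 and Spcs3 no longer passed at 24 h (limma, adjusted p = 0.0603, 0.0513 and 0.0577). Dimmer probe sets of Xbp1 did, at 0.33 each (limma, adjusted p = 0.0401 and 0.0436). The summed intensity of the 12 markers of other cells ranged from 1442 to 1861 on arrays with BayK8644 and from 1140 to 1622 on those without. That of the 12 beta-cell markers ranged from 227060 to 250345 with BayK8644 and from 220983 to 253309 without. Sst was higher by 2.36 and Gcg by 0.56 with BayK8644 at 24 h, while Hhex, like Sst a marker of delta cells, stayed between 1.772 and 1.825 on all arrays. The beta-cell factor Nkx2-2 was lower at 24 h, at -0.64 (limma, adjusted p = 0.000499). It was the only 1 of the 12 beta-cell markers called at that time, when 6 of their differences were above 0 and 6 below. Gcg was also higher over all times by 0.31, at 6 h by 0.52 and in the combination against DMSO by 0.49 (limma, adjusted p = 0.0353, 0.0348 and 0.0312), while Ppy, Cpa1, Krt19 and Ptprc stayed at the floor of the method on all arrays. Cela1, an acinar marker like Cpa1, lay between 8.95 and 9.60. The part of such cells in the ER results was not tested.

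Sdf2l1, a partner of the BiP and Dnajb11 complex, gave the largest difference of the 36 at 24 h. For Sdf2l1 the combination arrays read 10.47, 10.48, 11.26 and 11.49 from 0.5 to 24 h, the BayK8644 arrays 10.38, 10.24, 10.75 and 10.96, the exendin-4 arrays 10.71, 10.30, 10.70 and 10.46 and the DMSO arrays 10.54, 9.89, 10.19 and 10.53. The arrays with BayK8644 were under the others at 0.5 h and above both at 6 and 24 h, most of all in the combination. The difference at 24 h was 0.73 ± 0.12 (SE; limma, adjusted p = 0.0133), 1.66-fold. The change of this difference between 0.5 and 24 h was 0.92 ± 0.18 (SE; limma, adjusted p = 0.04995), and it was the 1 member, against 0.603% of all genes, for which the effect grew past the threshold. That call was lost when any of 14 arrays was left out. For 6 h minus 0.5 h 0 members passed (0.236% of all genes did, upward), and 14 had an unadjusted p under 0.05, against 8.0% of all genes. For 24 h minus 6 h 0 members passed (limma; 0.0% of all genes), with 2 of the 36 and 4.56% of all genes at an unadjusted p under 0.05.

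Pdia6, Sec61a1 and Selenos passed at a single time. Pdia6 is a protein disulfide isomerase. At 0.5, 2, 6 and 24 h, Pdia6 had log2 levels of 12.66, 12.76, 13.21 and 13.29 in the combination, 12.74, 12.48, 12.92 and 13.08 in BayK8644, 12.72, 12.58, 12.79 and 12.83 in exendin-4 and 12.74, 12.47, 12.74 and 12.80 in DMSO. Its difference at 24 h was 0.37 ± 0.08 (SE; limma, adjusted p = 0.0270), with the combination and BayK8644 arrays above the others at that time. Sec61a1 is the pore of the translocation channel. Sec61a1 levels over the 4 times were 14.34, 14.46, 14.62 and 14.67 in the combination, 14.34, 14.38, 14.57 and 14.63 in BayK8644, 14.35, 14.38, 14.47 and 14.39 in exendin-4 and 14.41, 14.36, 14.33 and 14.40 in DMSO. Its difference at 24 h was 0.26 ± 0.05 (SE; limma, adjusted p = 0.0216), and 4 other probe sets of the gene gave 0.23 to 0.30, while its dimmest gave -0.23 ± 0.34 (SE). Selenos encodes a membrane selenoprotein of the degradation machinery. For Selenos the combination arrays read 11.82, 11.71, 12.01 and 11.97 from 0.5 to 24 h, the BayK8644 arrays 11.72, 11.81, 11.9966 and 12.08, the exendin-4 arrays 11.92, 11.63, 11.80 and 11.77 and the DMSO arrays 11.85, 11.63, 11.58 and 11.84. Its difference at 6 h was 0.31 ± 0.07 (SE; limma, adjusted p = 0.0486), and on the probe set that stood for each gene none of the other 9 degradation factors passed in a BayK8644 comparison. Other probe sets of Herpud1 and Derl2 passed, with the values given above.

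The roles differed in how many members passed, a description with no test of the difference between roles, beside 2.99% of all genes called upward at 24 h and 4.89% over all times. At 24 h, 6 of 10 chaperones passed with a median difference of 0.33, 2 of 6 translocation genes with 0.24, 1 of 4 disulfide isomerases with 0.18, 0 of 10 degradation factors with 0.08, 0 of 4 sensors with 0.11 and 0 of 2 lectin chaperones with 0.07. Among the chaperones that did not pass, Dnajc3, a co-chaperone that inhibits PERK, had 0.49 (adjusted p = 0.0651), and Hsp90b1, the ER member of the HSP90 family, had 0.12 (adjusted p = 0.243; both limma). Calr, a lectin chaperone, had 0.14 and its membrane-bound relative Canx -0.01. The mannosidase-like degradation factor Edem2 had 0.34 (limma, adjusted p = 0.0512), and Edem1 0.05. Herpud1, which organises the degradation complex, had 0.09, and Syvn1, its ubiquitin ligase, -0.11. These values are of the brightest probe set, and dimmer ones differed. A dimmer probe set of Edem1 gave 0.46, 1 of Derl1 0.33, that of Herpud1 0.21, that of Syvn1 0.03 and that of Derl2 -0.32. None of these passed at 24 h (limma, adjusted p = 0.0763, 0.0617, 0.285, 0.874 and 0.0597). Over all times 2 of the 9 genes with an ERSE passed, with a median difference of 0.11, and 3 of the 19 with a promoter but no ERSE, with 0.08. At 24 h these counts were 2 of 9 and 3 of 19, with medians of 0.14 and 0.18. The 19 include the ERSE-II genes Dnajb11 and Herpud1, and Dnajb11 passed in both comparisons. Among genes that passed, Hyou1, Manf, Spcs3 and Sec61a1 had no promoter found and are left out. Whether the response follows the element was not tested.

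**Figure D2:**
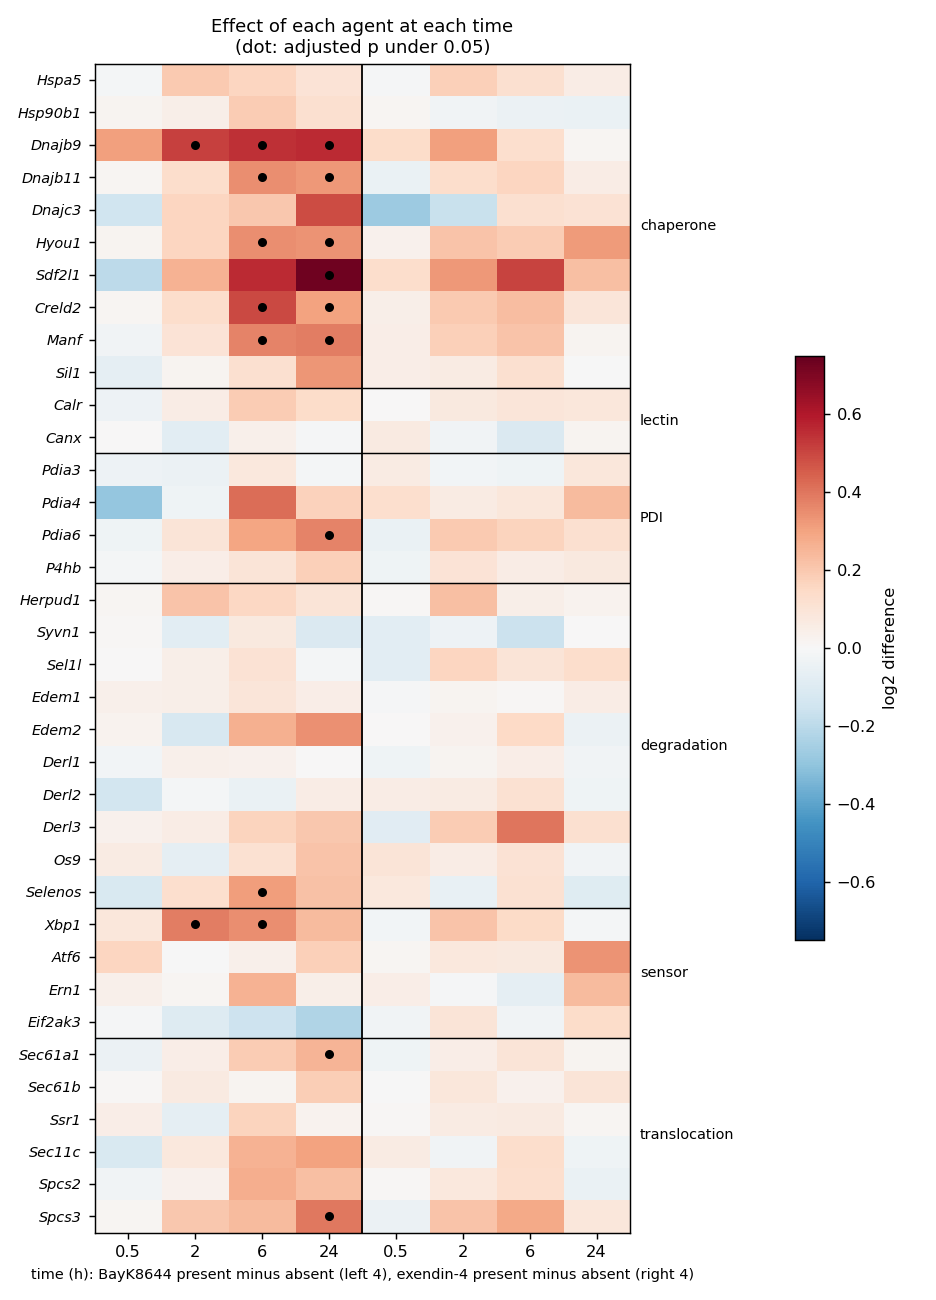
Log2 difference of each of the 36 genes (rows, grouped by role) between arrays with and without BayK8644 (left 4 columns) and with and without exendin-4 (right 4 columns) at 0.5, 2, 6 and 24 h, as a colour scale, with a black dot where limma's adjusted p was under 0.05. The dots lie in the BayK8644 columns at 2, 6 and 24 h, 2, 7 and 9 of them, and mostly in the chaperone rows.

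The sensors other than Xbp1 did not pass in any comparison of BayK8644. Ern1 encodes IRE1. At 0.5, 2, 6 and 24 h, Ern1 had log2 levels of 9.83, 9.95, 10.16 and 10.41 in the combination, 9.79, 9.99, 10.08 and 10.23 in BayK8644, 9.80, 9.97, 9.75 and 10.42 in exendin-4 and 9.74, 9.94, 9.97 and 10.13 in DMSO. It was higher at 24 h than at 0.5 h in every treatment. Atf6 encodes the sensor that is cleaved in the Golgi. Atf6 levels over the 4 times were 9.88, 9.86, 9.88 and 10.34 in the combination, 9.81, 9.66, 9.72 and 9.83 in BayK8644, 9.66, 9.74, 9.76 and 9.99 in exendin-4 and 9.70, 9.78, 9.77 and 9.83 in DMSO. The combination array at 24 h was the highest, and the other arrays lay between 9.66 and 9.99. Eif2ak3 encodes PERK. For Eif2ak3 the combination arrays read 11.94, 11.50, 11.82 and 11.69 from 0.5 to 24 h, the BayK8644 arrays 11.89, 11.54, 11.68 and 11.65, the exendin-4 arrays 11.87, 11.73, 11.82 and 12.01 and the DMSO arrays 11.97, 11.50, 12.0002 and 11.78. Its 24 h values were lower with BayK8644, at -0.22 ± 0.10 (SE; limma, adjusted p = 0.217), so the difference did not pass.

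**Figure D3:**
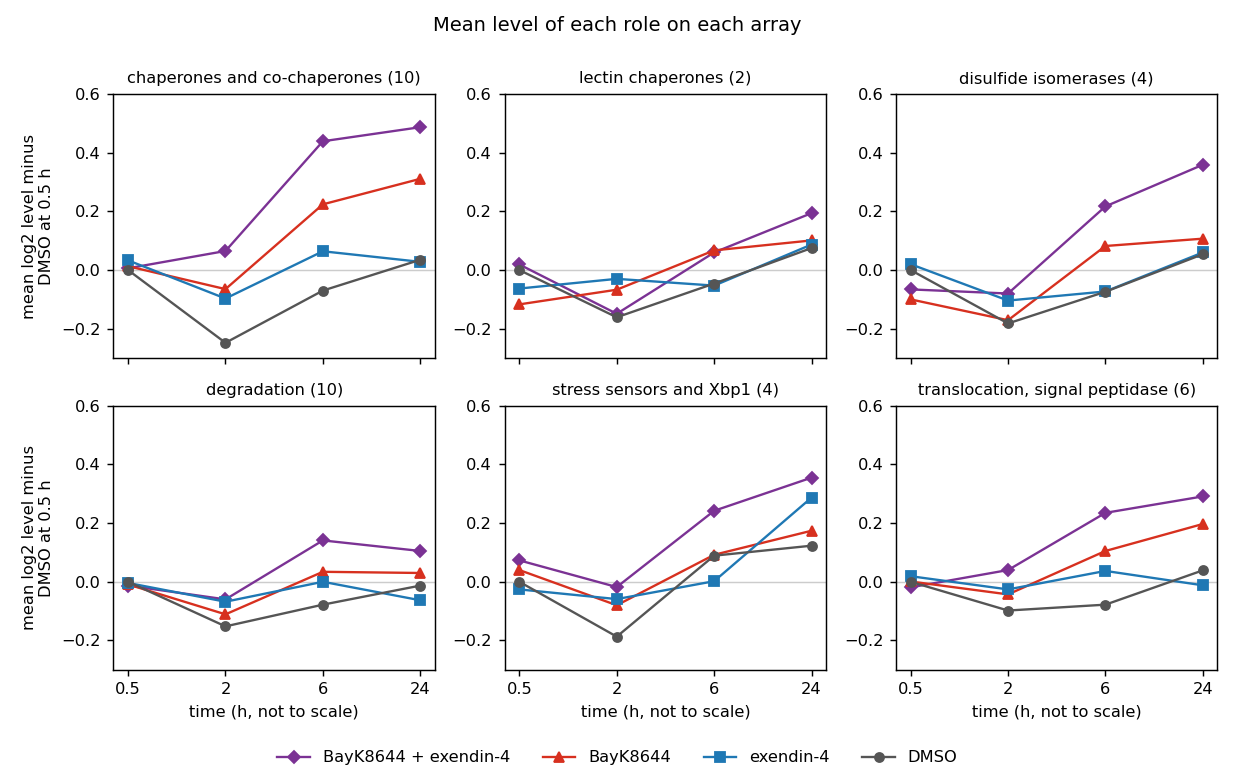
Mean log2 level of the genes of each role (6 panels, number of genes in brackets) on each array, minus the mean on the DMSO array at 0.5 h, against time (horizontal axis, not to scale), for the 4 treatments. The chaperones reached 12.84 and 12.66 on the combination and BayK8644 arrays at 24 h, against 12.38 and 12.39 on the exendin-4 and DMSO arrays, and the degradation factors 11.39 and 11.31, against 11.22 and 11.27.

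Against DMSO, with time in the model and 4 arrays per treatment, 10 of the 36 genes were higher in the combination (4.38% of all genes were), 1 in BayK8644 (0.481% were), and 0 passed in either direction in exendin-4 (limma; 0.0% of all genes did, and 1 of the 36 and 698 of all genes had an unadjusted p under 0.05). The 10 were Hspa5, Dnajb9, Dnajb11, Hyou1, Sdf2l1, Creld2, Manf, Xbp1, Pdia6 and Spcs3, and the 1 was Dnajb9. Adjusted over all probe sets, the brightest of Pdia6 no longer passed in the combination (limma, adjusted p = 0.0574). The combination differed by 0.64 ± 0.16 for Sdf2l1, 0.63 ± 0.08 for Dnajb9 and 0.41 ± 0.08 for Hyou1 (SE, n = 4 each; limma, adjusted p = 0.0338, 0.00152 and 0.0136). These tests share the DMSO arrays. The combination count was 1 without the combination array at 6 h or the DMSO array at 2 or 6 h, 2 without the combination array at 2 or 24 h, 4 without the DMSO array at 24 h, and 18 without the combination array at 0.5 h. Without all arrays of 0.5, 2, 6 or 24 h it was 18, 1, 1 and 1. Dnajb9 kept its call for the combination whichever array was left out. For BayK8644 against DMSO the count was 0 without the BayK8644 array at 2, 6 or 24 h or the DMSO array at 2 or 6 h, 2 without the BayK8644 array at 0.5 h, and 3 without the DMSO array at 0.5 h. It was 6 without all arrays of 0.5 h and 0 without all of 2 or 6 h.

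Exendin-4 present against absent gave 0 calls over all times (limma; 0.0% of all genes, either direction). At an unadjusted p under 0.05 there were 7 of the 36 and 1295 (12.2%) of all genes, and the median difference over the 36 was 0.06, with 32 above 0, against 0.02 over all genes. Hyou1 had the smallest p of the 36, at 0.19 ± 0.05 (SE; limma, adjusted p = 0.226). By time, 0 of the 36 passed at 0.5, 2, 6 and 24 h, against 0.00943%, 0.0189%, 0.0% and 0.0% of all genes, and 0, 11, 10 and 4 of the 36 had an unadjusted p under 0.05, against 1.89%, 5.55%, 6.97% and 5.91% of all genes. Without the exendin-4 array at 24 h, 1 member passed over all times.

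Whether the agents add was tested as an interaction over all times, and 0 of the 36 passed (limma; 0.0% of all genes, with 1 of the 36 and 710 of all genes at an unadjusted p under 0.05). Herpud1 had the smallest p, at 0.21 ± 0.08 (SE; limma, adjusted p = 0.734). At 24 h the median difference of the 36 was 0.27 for the combination minus exendin-4 and 0.14 for BayK8644 minus DMSO, and the first was larger than the second for 28 of the 36, against 65.4% of all genes. Sdf2l1 gave 1.03 and 0.43, Dnajb9 0.80 and 0.33, and Derl3, of the same family as Derl2, 0.56 and -0.16. At 6 h the medians were 0.20 and 0.16. The interaction was not tested at single times, which hold 1 array of each treatment.

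**Figure D4:**
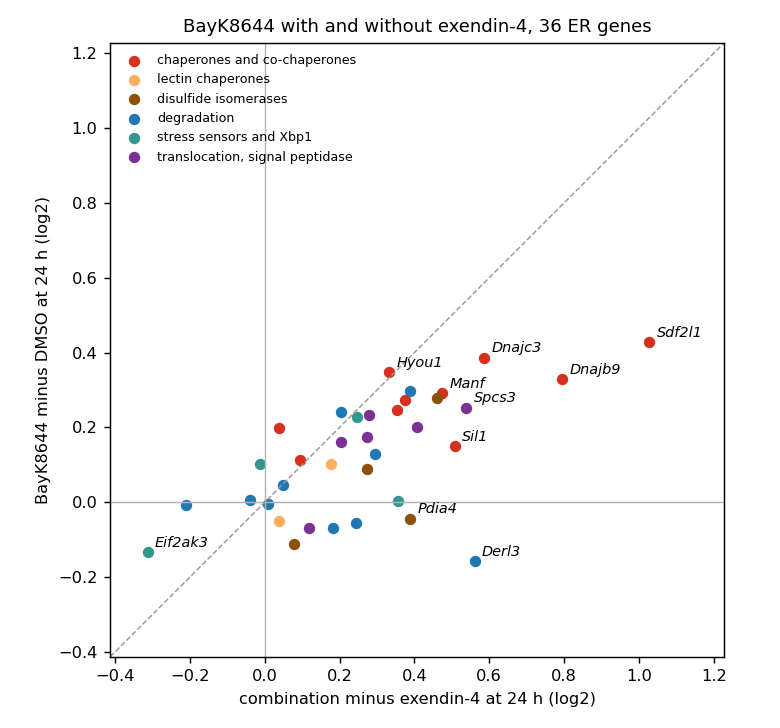
Log2 difference at 24 h of the combination minus exendin-4 (horizontal axis) and of BayK8644 minus DMSO (vertical axis), 1 point per gene coloured by role; the dashed line marks equal differences, and the axes share no array. Of the 36 points 28 lie below the line, with Sdf2l1 farthest right.

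Culture time was compared over the 4 treatments, with 4 arrays per time. At 2 h against 0.5 h 3 passed downward (2.64% of all genes did): Eif2ak3 at -0.35 ± 0.07, Xbp1 at -0.26 ± 0.07 and Syvn1 at -0.21 ± 0.05 (SE; limma, adjusted p = 0.0145, 0.0489 and 0.0348). The count was 0 without the combination or DMSO array at 2 h or the BayK8644 array at 0.5 h, and 1 without the BayK8644 array at 2 h, the DMSO array at 0.5 or 6 h or the exendin-4 array at 0.5 h. At 6 h 1 passed upward, Hspa5 at 0.21 ± 0.05 (SE; limma, adjusted p = 0.0176), against 2.97% of all genes; the count was 8 without the DMSO array at 0.5 h, 2 without the exendin-4 array at 6 h or the DMSO array at 2 or 6 h, and 0 without the combination or BayK8644 array at 0.5 or 6 h.

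At 24 h against 0.5 h, 14 of the 36 were higher, against 10.6% of all genes, and 1 was lower, against 13.0%. Ern1 had the largest change, at 0.51 ± 0.08 (SE; limma, adjusted p = 0.000321), 1.42-fold, and with Sec61b, the beta subunit of the channel, at 0.18 ± 0.04 (SE; limma, adjusted p = 0.00598), it kept its call with any array left out. The others that rose were Calr, Pdia6, P4hb, Dnajb9, Hyou1, Edem2, Xbp1, Atf6, Sec61a1, Spcs3, Sil1 and Os9, by 0.13 to 0.33. Derl3 was lower, by -0.38 ± 0.12 (SE; limma, adjusted p = 0.0284). The 15 calls became 4 without the combination array at 24 h, 5 without the BayK8644 array at 0.5 or 24 h or the combination array at 0.5 h, and 9 without the exendin-4 array at 0.5 h.

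Related genes outside the 36 were read in the same fits, in which 4.89% of all genes were higher with BayK8644 over all times, 3.97% lower, and 2.99% higher at 24 h. The lists below were also drawn up with earlier results of these data known, so their counts are descriptions. Of 27 other ER folding genes, 2 were higher with BayK8644 over all times (Ero1a at 0.26, an oxidase that feeds disulfide isomerases, and Erp44 at 0.18, a thioredoxin-like retention factor) and 6 at 24 h, led by Fkbp11, a prolyl isomerase, at 1.20 ± 0.12 (SE; limma, adjusted p = 0.000701), 2.29-fold. Of 21 other degradation genes 1 passed over all times (Ube2j1, a ubiquitin-conjugating enzyme, at 0.13). Of 16 other translocation genes 1 was higher (Tram1 at 0.14) and 1 lower (Ssr3 at -0.14), and at 24 h 2 were higher (Ssr2 at 0.51, Ssr4 at 0.37).

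PERK slows translation and raises ATF4, whose targets form a further list. Of its 22 genes, 14 were higher with BayK8644 over all times and 0 lower, with a median of 0.20 against 0.01 over all genes. Cebpb, a transcription factor, differed by 0.43 ± 0.06 (SE; limma, adjusted p = 0.000434), Nupr1, a stress-induced chromatin protein, by 0.64 ± 0.14 (SE; limma, adjusted p = 0.0144), Atf3 by 0.44 and Trib3, a pseudokinase, by 0.42. At 0.5, 2, 6 and 24 h, 1, 5, 10 and 9 of the 22 passed upward, against 0.217%, 1.15%, 1.71% and 2.99% of all genes. Those at 24 h included Ddit3, the factor CHOP, at 0.52 ± 0.07 (SE; limma, adjusted p = 0.00427). Of 14 heat shock genes, cytosolic but for the mitochondrial Hspd1 and Hspe1, 0 passed in the comparison of BayK8644 over all times (limma; 3 had an unadjusted p under 0.05, against 26.2% of all genes). In the combination against DMSO 1 of the 14 passed, against 4.38% of all genes: Hspe1, higher by 0.30 ± 0.08 (SE; limma, adjusted p = 0.0409). Of 23 genes of COPII coats and Golgi transport, 3 were higher with BayK8644 over all times (Sec24d at 0.45, Preb at 0.16, Kdelr2 at 0.15). Of 12 beta-cell markers Chgb was higher, at 0.11, and Nkx2-2 lower, at -0.32.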

How the data were processed

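Total RNA from R7T1 cells was hybridised to 1-colour Affymetrix mouse arrays, 1 per treatment and time. The deposited values are linear intensity values for 45101 probe sets, made by the authors with GCRMA, per the submitters' processing notes. GCRMA corrects background by probe sequence and quantile-normalizes, and the GCRMA version is not given in the sources used here. How far this processing alters small differences was not tested.

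Deposited intensities were turned to log2 without a pseudocount. Gene names came from the platform annotation (probe sets: 34958 with 1 symbol, 932 with several, 9211 with none; 64 controls left out), and a probe set was kept where log2 reached 4 on at least 2 arrays. The probe set with the highest mean stood for a gene. Linear models were fitted with limma 3.58.1 in R 4.3.3 (lmFit, eBayes with an intensity trend), with 10, 9 and 4 residual degrees of freedom, and p-values were Benjamini-Hochberg adjusted over 10610 genes, threshold 0.05. The fits were also run on simulated data, with independent noise around each gene's time means and BayK8644 differences that were constant over time. That simulation held no exendin-4 effect, no effect that changes with time and no deviation of a whole array. It therefore cannot show how the fits behave where these are present. Since no treatment and time has a replicate, an effect that changes with time counts as error in the models over all times, and the number of arrays limits the precision. In the model by time, a departure of the agents from adding counts as error. Values on every array are given for members called in a BayK8644 comparison over all times or at a single time, and for Hspa5, Xbp1, Atf6, Ern1 and Eif2ak3; from other lists at most 4 called genes in each direction are named. The members and lists were chosen with earlier results of these data known. A planned reading of protein C-terminal signals is not analysed here.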

Additional observations from a re-analysis of the deposited data

Results flagged for a closer look

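The BayK8644 effect on Sdf2l1 differed between times by a test of the difference itself. It was larger at 24 h than at 0.5 h by 0.92 (log2; limma, adjusted p = 0.04995). The call was lost in 14 of the 16 fits that each left out 1 array, with differences of 0.62 to 1.22 and an adjusted p of up to 0.455.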

How the results depend on the processing

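For the 57 called results of single ER genes, 1387 values under alternatives were computed: 0 changed direction, 908 stayed past the threshold and 479 did not, and the cause was not tested. Dnajb9 with BayK8644 over all times stayed past the threshold under every alternative run, while 3 of the 8 genes called there (Dnajb9, Dnajb11, Xbp1) did so with every array left out in turn. The counts of ER genes called moved as follows. With no filter on dim probe sets they were 5 for BayK8644 over all times, 4 for the combination against DMSO, 1 for BayK8644 at 2 h, 4 at 6 h, 1 for 2 h against 0.5 h, 7 for 24 h against 0.5 h and 0 for the change of the BayK8644 effect from 0.5 to 24 h. Without the intensity trend they were 5 for the combination, 0, 1 and 2 for BayK8644 at 2, 6 and 24 h, 1 for 2 h against 0.5 h and 0 for the change to 24 h. With the mean of all probe sets they were 1 and 4 for BayK8644 at 2 and 6 h, 1 and 3 for 2 and 6 h against 0.5 h, and 0 for the change to 24 h. Centring arrays on the median gave 14 for BayK8644 at 24 h, 2 for 6 h against 0.5 h, and 2 for the change of the effect to 6 h and to 24 h. That last count was 2 with a log2 minimum of 6, 2 with quantile normalization and 0 with 16 added before log2.

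Leaving out all arrays of 0.5, 2, 6 or 24 h gave 17, 1, 1 and 2 for BayK8644 over all times, and 18, 1, 1 and 1 for the combination. For BayK8644 against DMSO it gave 6 without 0.5 h, and 0 without 2 h or 6 h. Leaving out 1 array at a time gave 3 to 13 for BayK8644 over all times, 1 to 18 for the combination, 0 to 3 for BayK8644 against DMSO, and 0 to 1 for exendin-4. At single times it gave 0 to 2, 0 to 10 and 0 to 12 for BayK8644 at 2, 6 and 24 h, 0 to 3 and 0 to 7 for the change of its effect to 6 and 24 h, and 0 to 4, 0 to 8 and 4 to 17 for 2, 6 and 24 h against 0.5 h. On the gene strand alone 20.7% of the 29 promoters held an ERSE, against 0.067% of all. No paired analysis was possible because the labels give no replicate numbers; arrays were matched by time and treatment alone, and time is already a term of every model.

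On its brightest probe set each of the 36 genes had signal above log2 4 on every array, so low signal limits none of these main results. Some dimmer probe sets lay near that level, and 2 arrays against 2 leave 4 degrees of freedom at single times.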
